A study of Mus musculus with 30 samples.

Results

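Lipins and the acyltransferases on either side of them assemble triglyceride from glycerol 3-phosphate and fatty acids, and 9 of their genes were followed here in 3T3-L1 cells given Kdm5c or scramble siRNA. 3T3-L1 is an established mouse line of embryonic fibroblast origin that behaves as a preadipocyte and turns into fat-storing cells when given hormones. Kdm5c encodes a histone demethylase that acts on methylated lysine 4 of histone H3. The 9 genes were Lpin1, Lpin2 and Lpin3 (the lipins), Gpam, Agpat1, Agpat2, Agpat3, Dgat1 and Dgat2. They were listed by name: Lpin3 was chosen by its rise with Kdm5c siRNA on every day, and the other 8 by their place in the pathway, with earlier results of these data known. All 9 were among the 12016 genes of the count table, so none was lost to its filter on low values; the table of CPM values, counts scaled to the size of each library, listed 55573 genes.

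Sub-confluent preadipocytes were transfected at day -3 with 50 nM of siRNA and harvested as total RNA 24 h (day -2), 48 h (day -1) or 72 h (day 0) later. Each day had 5 libraries with a non-targeting scramble siRNA and 5 with a pool of siRNAs against Kdm5c, which makes 30 libraries in 6 groups. All groups shared the line, the medium and the lipid transfection reagent, and an untransfected group was not analysed here. The labels do not say whether the 5 libraries of a group came from separate cultures, so the p-values below are set against a spread that could be technical alone.

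Library totals ran from 25217905 to 33725717 reads. A count of 3 reads, taken as the limit of detection, corresponded to between 0.089 and 0.119 CPM. Kdm5c itself lay between 154.8 and 216.5 CPM in the scramble libraries and between 23.3 and 55.13 CPM in the Kdm5c siRNA libraries, so the 30 labels matched the target. Its mean under the siRNA was 16.2% of scramble on day -2, 18.9% on day -1 and 25.2% on day 0. All 10 fibroblast and preadipocyte markers were above 1 CPM in all 6 groups, and some differed with the siRNA (edgeR test described below). On day -2, 1 rose (11.2% of all 12016 genes did) and 0 fell (11.8%). On day -1, 3 rose (18.8% of all genes) and 4 fell (16.8%). On day 0, 2 rose (19.2% of all genes) and 4 fell (15.7%), and Zfp423 showed the largest fall (log2 fold change -0.52 ± 0.06, SE). Of 10 mature adipocyte markers, 8 stayed under 1 CPM in all groups (Adipoq reached at most 0.159 CPM and Plin1 0.143 CPM). The other two were Fabp4 and Lipe, which averaged 11.3 and 6.48 CPM in scramble cells on day -2 and 26.2 and 12.8 CPM on day 0. Under Kdm5c siRNA Fabp4 was higher on day 0 (0.30 ± 0.08) and Lipe lower on days -1 and 0 (-0.38 ± 0.07 and -0.37 ± 0.07). The summed adipocyte markers ran from 15.1 to 19.9 CPM on day -2, from 31.8 to 40.9 CPM on day -1 and from 34.1 to 46.2 CPM on day 0. Of 6 macrophage and leukocyte markers 4 stayed under 1 CPM, and Cd68 and Csf1r were higher under the siRNA on day 0 (0.91 ± 0.13 and 0.52 ± 0.19, from scramble means of 1.74 and 1.07 CPM). The endothelial marker Kdr was higher on day -1 (0.62 ± 0.20, from 0.809 CPM). Of 5 skeletal muscle markers, Acta1 averaged 32.2 CPM in scramble cells on day -2 and 0.642 CPM on day 0. Des averaged 1.54 and 5.5 CPM on the same days, and neither was called for the siRNA on any day. All 5 epithelial markers averaged under 1 CPM in each group. The part of these marker differences in the results below was not tested. Among the scramble libraries of day -1, replicates 1 to 3 stood apart from replicates 4 and 5: log2 CPM values differed by a root mean square of 0.16 to 0.18 between those sets and of 0.14 within them. Day -1 calls printed here for single genes that were lost without replicates 1 to 3 are given with and without them.

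In the glycerol phosphate pathway an acyl-CoA is joined to glycerol 3-phosphate, a further acyl chain makes phosphatidate, a phosphatase removes the phosphate to leave diacylglycerol, and a last acyl chain gives triglyceride. Lipins are the soluble, magnesium-dependent phosphatidate phosphatases of this route. They move between the cytosol, the endoplasmic reticulum and, for some forms, the nucleus, where lipin 1 also works as a transcriptional coactivator. Loss of lipin 1 causes the lipodystrophy of the fatty liver dystrophy mouse, and loss of human AGPAT2 causes a congenital lipodystrophy. A rise of lipin 1 is a known part of adipocyte formation.

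The 3 lipin genes lie on different chromosomes in the GRCm38 assembly: Lpin1 on the minus strand of chr12:16535669-16610966, Lpin2 on the plus strand of chr17:71182560-71249817 and Lpin3 on the plus strand of chr2:160880670-160906002. The bases before their starts are shown for description, and a link between them and the levels was not tested. The sequences are from RefSeq on GRCm38.p6 and run 5′ to 3′ on the gene's strand, up to the base before the start, except the second Lpin3 sequence, which stops short of its listed start where an annotated exon begins. Capitals mark a GC box (GGGCGG) or an E-box (CACGTG).
Lpin1, chr12:16610967-16611216: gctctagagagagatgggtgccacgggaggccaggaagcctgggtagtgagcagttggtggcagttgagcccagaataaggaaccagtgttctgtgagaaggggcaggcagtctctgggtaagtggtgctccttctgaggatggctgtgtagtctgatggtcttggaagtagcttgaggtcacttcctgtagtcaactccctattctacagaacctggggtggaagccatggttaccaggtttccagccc
Lpin2, first listed start, chr17:71183282-71183531: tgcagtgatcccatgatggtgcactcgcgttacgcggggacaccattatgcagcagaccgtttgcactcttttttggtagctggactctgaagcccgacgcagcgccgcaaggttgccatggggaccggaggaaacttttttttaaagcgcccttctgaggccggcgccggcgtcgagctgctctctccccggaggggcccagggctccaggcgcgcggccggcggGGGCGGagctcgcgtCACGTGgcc
Lpin3, first listed start, chr2:160880420-160880669: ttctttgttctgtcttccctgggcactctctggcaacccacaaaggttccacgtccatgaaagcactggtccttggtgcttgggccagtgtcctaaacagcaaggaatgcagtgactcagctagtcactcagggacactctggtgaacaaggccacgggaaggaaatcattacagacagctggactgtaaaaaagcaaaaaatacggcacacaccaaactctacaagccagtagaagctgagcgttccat
Lpin3, second listed start, chr2:160887918-160888107 (190 bases): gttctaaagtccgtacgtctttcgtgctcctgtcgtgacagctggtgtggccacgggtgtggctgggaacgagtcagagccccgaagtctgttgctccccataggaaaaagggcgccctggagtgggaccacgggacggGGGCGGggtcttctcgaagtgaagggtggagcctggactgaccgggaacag

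Over the 250 bases before each start, the Lpin1 window held 1 CpG and 54.8% G+C, and 7.87% of all 32851 RefSeq windows held fewer CpGs. The first Lpin3 window held 4 CpGs and 49.6% G+C, near the median window with 6 CpGs and 52.4% G+C. The second Lpin3 window, inside the gene, held 16 CpGs, and the first Lpin2 window held 26, more than 90.4% of windows. Windows at the other listed Lpin2 starts held 50 and 3 CpGs. The lipin starts thus differed widely in CpG number, and the deposited tables do not say which start gave the reads.

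Each window was searched on both strands for an E-box (CACGTG), a GC box (GGGCGG), a sterol-element motif (TCACNCCAC), a motif for C/EBP factors (TTGCNNAA) and a motif for E2F factors (GGCGGGA). In the sequences printed above the matches did not overlap one another. The E-box was found in the first Lpin2 window, its first base 9 bases before the start, and in 6.02% of all windows. Among the lipins the GC box was found in the first and second Lpin2 windows and the second Lpin3 window, and among the acyltransferases in the second Gpam window, both Agpat1 windows and the Agpat2 window; 32.7% of all windows held it. The C/EBP motif was found in the third Lpin2 window and the Agpat3 window, and in 9.56% of all windows. The Lpin1 window and the first Lpin3 window held none of the 5 motifs, which says only that these letters are not in those bases. RefSeq windows were at hand for 7 of the 9 genes, Dgat1 and Dgat2 being the others.

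Lpin3 was higher under Kdm5c siRNA than under scramble siRNA on each day. It had the fewest reads of the 3 lipins in each group except Kdm5c siRNA on day -2, where Lpin1 had fewer. Its protein is a phosphatidate phosphatase that overlaps in function with the other lipins. On day -2 its 5 scramble libraries held 8.998, 9.59, 8.437, 10.48 and 10.14 CPM, and its 5 Kdm5c siRNA libraries 16.12, 16.41, 14.05, 14.31 and 14.79 CPM. On day -1 the scramble values were 5.29, 5.924, 5.077, 5.927 and 5.851 CPM and the siRNA values 13.28, 12.78, 13.56, 12.21 and 12.19 CPM. On day 0 they were 3.806, 3.428, 3.559, 3.483 and 4.2 CPM against 9.352, 8.554, 7.862, 9.192 and 9.896 CPM. On each day the lowest siRNA library was above the highest scramble library, and the smallest number of reads behind any of these values was 90.

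These differences chose Lpin3, so they are given without a test. Its log2 fold change in the fit of all genes was 0.68 ± 0.06 (SE) on day -2, 1.19 ± 0.07 on day -1 and 1.28 ± 0.08 on day 0. Ranked by log2 fold change among 12016 genes, it stood 18th from the top on day -2, 5th on day -1 and 10th on day 0. Scramble replicates 1 to 3 of day -1 did not carry the day -1 difference: they held 5.077 to 5.924 CPM, replicates 4 and 5 held 5.851 to 5.927 CPM, and the siRNA libraries began at 12.19 CPM. In bulk RNA, fewer cells that express a gene and less RNA per cell cannot be told apart, which holds for all results below.

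**Figure D1:**
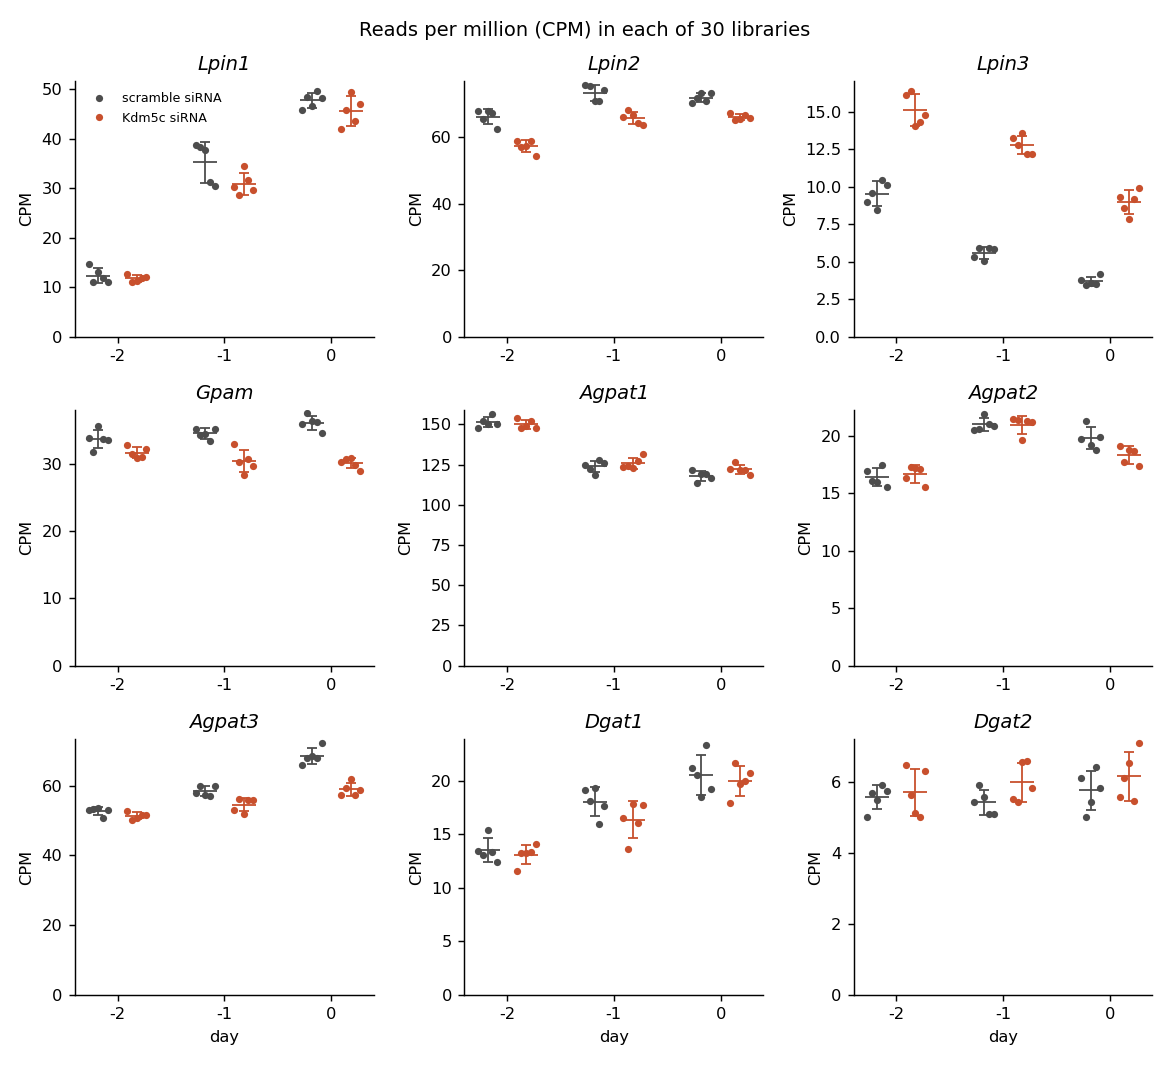
CPM of each of the 9 genes (y axis, from 0) by day (x axis), for scramble siRNA (grey) and Kdm5c siRNA (red); points are the 5 libraries of a group, bars the mean ± SD. The Lpin3 siRNA libraries lie above the scramble libraries on every day, the Lpin2 siRNA libraries lie below them, and Lpin1 climbs from 11.05 to 14.65 CPM on day -2 in scramble to 45.87 to 49.76 CPM on day 0.

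Over time in the scramble cells, the Lpin3 level was lower on each later day while that of Lpin1 was higher. The scramble libraries also entered the differences that chose Lpin3, so its values over time are given without a test. Lpin3 went from 9.53 ± 0.83 CPM (SD, n = 5) on day -2 to 5.61 ± 0.40 on day -1 and 3.70 ± 0.32 on day 0, with no overlap between successive days. Its log2 change was -0.83 ± 0.07 (SE) from day -2 to day -1 and -0.57 ± 0.08 from day -1 to day 0. Over the whole interval it was -1.40 ± 0.08.

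The Kdm5c siRNA libraries also held less Lpin3 on later days, from a higher start. Their mean was 15.1 ± 1.07 CPM (SD, n = 5) on day -2, 12.8 ± 0.62 on day -1 and 8.97 ± 0.78 on day 0. Day 0 under the siRNA stood at 59.3% of its own day -2 mean, where scramble stood at 38.8%. The day 0 siRNA libraries, at 7.862 to 9.896 CPM, overlapped the scramble libraries of day -2, at 8.437 to 10.48 CPM. The siRNA effect on Lpin3 was 0.61 ± 0.10 (log2, SE) larger on day 0 than on day -2, again a description only.

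Lpin2, the most abundant lipin by reads in all 6 groups, was lower under Kdm5c siRNA on each day, at 86.5 to 91.9% of its scramble mean, and it was the member of the 8 that passed the test on all 3 days. Lipin 2 is the main lipin of liver. On day -2 its scramble libraries held 68.11, 65.69, 67.86, 67.29 and 62.6 CPM and its siRNA libraries 59.07, 56.98, 57.28, 58.97 and 54.56 CPM. On day -1 the values were 75.92, 75.54, 70.94, 71 and 74.19 CPM against 66.14, 68.38, 66.83, 64.26 and 63.84 CPM. On day 0 they were 70.24, 71.88, 73.33, 71.08 and 73.42 CPM against 67.39, 65.29, 65.66, 66.71 and 65.9 CPM. Scramble and siRNA libraries did not overlap on any day, and day -1 had the narrowest gap. The log2 fold change was -0.20 ± 0.03 (SE) on day -2 (edgeR quasi-likelihood test, Benjamini-Hochberg adjusted p = 2.24e-07), -0.16 ± 0.03 on day -1 (edgeR adjusted p = 9.93e-06) and -0.12 ± 0.03 on day 0 (edgeR adjusted p = 0.000566).

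Lpin2 moved little over time. In scramble cells its log2 change from day -2 to day 0 was 0.08 ± 0.03 (SE; edgeR adjusted p = 0.00603), which no longer passed when the low-count filter was dropped (0.04, edgeR adjusted p = 0.366) or when reads recovered from the CPM table were fitted (0.04, edgeR adjusted p = 0.166). Its change from day -2 to day -1 was 0.08 ± 0.03 (edgeR adjusted p = 0.0101) and from day -1 to day 0 it was 0.00 (95% interval -0.05 to 0.06). The first of these also missed the threshold without scramble day -2 replicate 5 (0.06, edgeR adjusted p = 0.0573) and without scramble day -1 replicates 1 to 3 (0.06, edgeR adjusted p = 0.127).

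Lpin1 had the largest change over time of the 9 genes in scramble cells and no siRNA effect that held up. Lipin 1 is the main lipin of adipose tissue and muscle. In scramble cells it held 14.65, 11.1, 13.07, 11.79 and 11.05 CPM on day -2. On day -1 it held 38.85, 38.31, 37.82, 31.24 and 30.38 CPM, and on day 0 it held 45.87, 48.53, 46.56, 49.76 and 48.32 CPM. The 3 days did not overlap, and day -1 split into replicates 1 to 3, near 38 CPM, and replicates 4 and 5, near 31 CPM. Lpin1 rose by 1.44 ± 0.08 (log2, SE) from day -2 to day -1 (edgeR adjusted p = 1.69e-16) and by 0.47 ± 0.07 from day -1 to day 0 (edgeR adjusted p = 2.51e-07), in all 1.92 ± 0.08 (edgeR adjusted p = 2.82e-20). Both steps kept their calls in all 23 alternatives, among them the fit without scramble day -1 replicates 1 to 3. Their sizes varied, from 1.25 to 1.51 for the earlier step and from 0.42 to 0.67 for the later.

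In the Kdm5c siRNA libraries Lpin1 held 12.59, 11.05, 11.2, 11.94 and 12.09 CPM on day -2 and 41.91, 45.88, 49.55, 43.71 and 47.16 CPM on day 0, which overlapped scramble on both days. The log2 difference was -0.06 (95% interval -0.25 to 0.12; edgeR adjusted p = 0.661) on day -2 and -0.06 (95% interval -0.20 to 0.07; edgeR adjusted p = 0.474) on day 0. On day -1 the siRNA libraries held 30.18, 28.74, 34.42, 31.76 and 29.65 CPM, a log2 difference of -0.19 ± 0.07 (edgeR adjusted p = 0.0315). Scramble replicates 4 and 5 lay inside that range. Without scramble replicates 1 to 3 the difference was 0.01 (edgeR adjusted p = 0.969), and the call was also lost when any of replicates 1, 2 or 3 of scramble or replicates 1, 2 or 5 of Kdm5c siRNA was left out (-0.15 to -0.18, edgeR adjusted p = 0.0621 to 0.0991).

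Set against each other within a library, the ratio of Lpin1 to Lpin2 missed the threshold between the siRNAs on each day after adjustment, with the largest difference on day -2. In scramble cells the log2 ratio of Lpin1 to Lpin2 reads was -2.44 ± 0.14 (SD, n = 5) on day -2, -1.07 ± 0.16 on day -1 and -0.59 ± 0.05 on day 0. The siRNA ratio differed from scramble by 0.15 on day -2 (exact permutation test, two-sided, p = 0.0794, adjusted over 3 days 0.238). It differed by -0.03 on day -1 (exact permutation p = 0.778, adjusted 0.778) and by 0.05 on day 0 (exact permutation p = 0.365, adjusted 0.548). With 5 against 5 libraries the smallest p this test can give is 0.00794. Leaving out scramble replicate 1 of day -2, its highest library, gave a difference of 0.20 (exact permutation p = 0.0159, not adjusted).

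**Figure D2:**
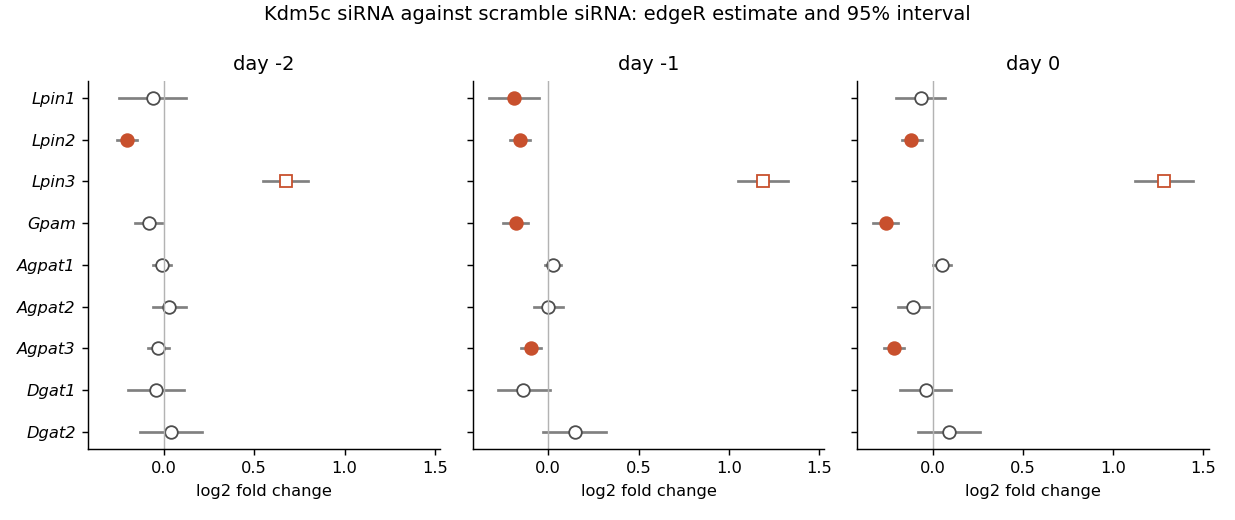
Log2 fold change of Kdm5c siRNA against scramble siRNA (x axis) for the 9 genes (y axis) on days -2, -1 and 0; symbols are edgeR estimates, lines 95% intervals, filled circles genes with an adjusted p under 0.05, open circles genes that missed it, and open squares Lpin3, which was not tested. Lpin3 lies at 0.68, 1.19 and 1.28, and the filled circles all lie below 0.

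The balance of the lipins was compared per kilobase of exon, since longer genes collect more reads. The union of annotated exons was 9665 bases for Lpin1, 12233 for Lpin2 and 3694 for Lpin3. On this scale Lpin3 made up 27.8% ± 2.48 (SD, n = 5) of the summed lipin level in scramble cells on day -2, 13.6% ± 1.28 on day -1 and 8.45% ± 0.67 on day 0. Under Kdm5c siRNA its share was 40.9% ± 1.75, 28.7% ± 0.64 and 19.3% ± 1.59 on the same days. The Lpin3 share was larger under the siRNA on each of the 3 days, and the libraries did not overlap. Lpin1 went the other way over time, from 13.7% ± 1.51 on day -2 to 41.8% ± 1.01 on day 0 in scramble cells and from 12.2% ± 0.65 to 37.6% ± 2.11 under the siRNA.

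These shares depend on the length used, because Lpin1 and Lpin2 have long alternative exons. With the longest transcript of each gene (5581, 5640 and 3470 bases) the Lpin3 share in scramble cells was 16.5% on day -2 and 4.75% on day 0, and under the siRNA 26.2% and 11.5%. Lpin2 held the largest share in all 6 groups with either length. On the union of exons the summed lipin level was 9.28 ± 0.25 CPM per kilobase in scramble and 10.01 ± 0.36 under the siRNA on day -2. It was 11.2 ± 0.50 and 12.1 ± 0.41 on day -1, and 11.8 ± 0.22 and 12.6 ± 0.24 on day 0. The difference of these sums between the siRNAs also depends on the length used. The union gives reads of Lpin1 and Lpin2 less weight beside Lpin3 than the longest transcripts do. Since the choice of Lpin3 used its rise, neither the shares nor the sums are evidence of a siRNA effect.

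**Figure D3:**
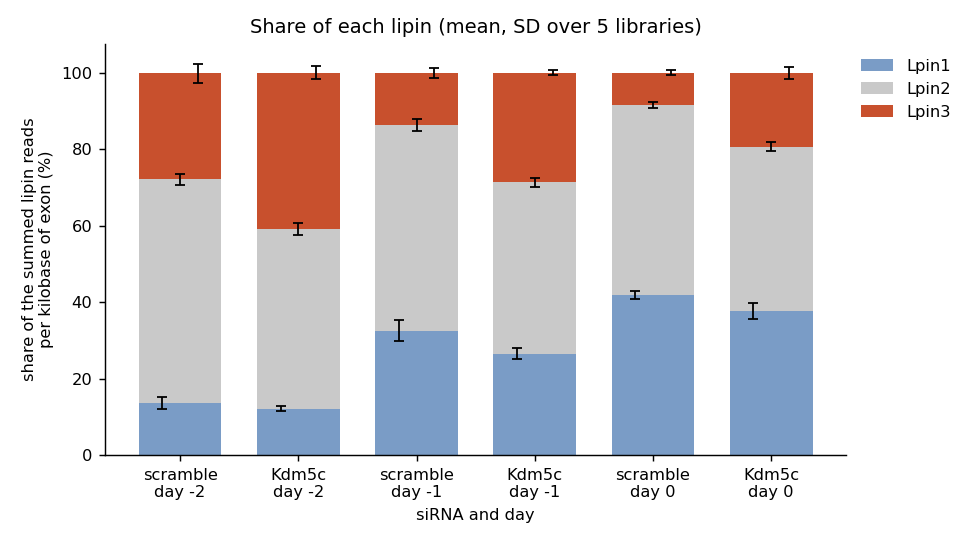
Share of each lipin in the summed reads per kilobase of exon (y axis, percent) in the 6 groups (x axis); bars are means over 5 libraries and error bars the SD. The Lpin3 segment shrinks from 27.8% to 8.45% over time in scramble cells and from 40.9% to 19.3% under Kdm5c siRNA, while the Lpin1 segment grows.

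Gpam, the mitochondrial acyltransferase that starts the route from glycerol 3-phosphate, was lower under Kdm5c siRNA on days -1 and 0. It lies on the minus strand of chr19:55067268-55127238. On day 0 its scramble libraries held 35.92, 37.52, 36.33, 36.22 and 34.63 CPM and its siRNA libraries 30.24, 30.75, 30.88, 29.76 and 28.96 CPM. On day -1 the values were 35.24, 34.32, 34.39, 33.35 and 35.24 CPM against 32.95, 30.28, 28.41, 30.76 and 29.71 CPM. The groups did not overlap on either day. The log2 fold change was -0.18 ± 0.04 (SE) on day -1 (edgeR adjusted p = 7.42e-05) and -0.26 ± 0.04 on day 0 (edgeR adjusted p = 1.74e-07). On day -2 the libraries overlapped, at 31.75 to 35.67 CPM in scramble and 30.92 to 32.86 CPM under the siRNA, and the difference was -0.08 (95% interval -0.16 to -0.01; edgeR adjusted p = 0.082). It passed once scramble day -2 replicate 2, the lowest scramble library, was left out (-0.11, edgeR adjusted p = 0.0363).

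The Gpam effect was larger on day 0 than on day -2 by -0.17 ± 0.05 (log2, SE; edgeR adjusted p = 0.013 for the difference of effects). Over time in scramble cells Gpam changed little, by 0.06 (95% interval -0.01 to 0.13; edgeR adjusted p = 0.094) from day -2 to day 0. That value passed in limma on log2(CPM + 0.5) (0.10, adjusted p = 0.00697) and with upper-quartile scaling (0.12, edgeR adjusted p = 0.00173). In those settings the median of all genes was higher as well, at 0.041 and 0.062 against 0.004 in the main fit. The Gpam value also passed among genes with a CPM of at least 5 in 5 libraries (0.08, edgeR adjusted p = 0.0244), where that median was 0.001. Without scramble day -2 replicate 3 it passed as well (0.08, edgeR adjusted p = 0.033). Gpam rose by 0.10 ± 0.04 from day -1 to day 0 (edgeR adjusted p = 0.00981). This missed the threshold in limma (0.06, adjusted p = 0.0821) and without the low-count filter (0.09, edgeR adjusted p = 0.0667). The median of all genes was -0.039 in that limma fit and -0.006 in the main fit.

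Of the acyltransferases that turn lysophosphatidate into phosphatidate, Agpat3 was lower under the siRNA on days -1 and 0, while Agpat1 and Agpat2 missed the threshold on all 3 days. Agpat3 (chr10:78269178-78352489, minus strand) also acts on other lysophospholipids. On day 0 its scramble libraries held 65.97, 67.92, 68.58, 68.07 and 72.25 CPM and its siRNA libraries 57.32, 59.49, 61.84, 57.48 and 58.69 CPM, with no overlap. Its log2 fold change was -0.21 ± 0.03 (SE; edgeR adjusted p = 1.07e-07). On day -1 it was -0.10 ± 0.03 (edgeR adjusted p = 0.0093), from 57.17 to 59.98 CPM in scramble against 51.95 to 56.19 CPM. Without scramble day -1 replicates 1 to 3 the day -1 value was also -0.10, with an edgeR adjusted p of 0.0659.

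On day -2 Agpat3 differed by -0.04 (95% interval -0.09 to 0.03; edgeR adjusted p = 0.433). The effect on day 0 exceeded that on day -2 by -0.18 ± 0.04 (edgeR adjusted p = 0.00188 for the difference of effects). In scramble cells Agpat3 rose by 0.34 ± 0.03 from day -2 to day 0 (edgeR adjusted p = 2.98e-14), most of it after day -1: 0.26 ± 0.03 from day -1 to day 0 (edgeR adjusted p = 7.09e-11). The earlier step, 0.07 ± 0.03 (edgeR adjusted p = 0.0207), lost its call without scramble day -2 replicate 4 (0.06, adjusted p = 0.0713), without scramble day -1 replicate 2 (0.06, adjusted p = 0.0579) or replicate 5 (0.07, adjusted p = 0.0551), and without day -1 replicates 1 to 3 together (0.08, adjusted p = 0.0738). It was also lost without the low-count filter (0.04, edgeR adjusted p = 0.417) and with reads recovered from the CPM table (0.06, edgeR adjusted p = 0.0882). Under Kdm5c siRNA the mean CPM of Agpat3 on day 0 was 115% of its own day -2 mean, against 130% in scramble. The fit, which scales libraries otherwise than CPM does, gave a fold of 1.26 for scramble.

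Agpat2 (chr2:26593057-26604417, minus strand), the family member lost in human congenital lipodystrophy, lay at the threshold on day 0. Its scramble libraries held 19.7, 21.33, 19.24, 18.77 and 19.91 CPM and its siRNA libraries 19.16, 17.74, 18.74, 18.67 and 17.36 CPM, so the groups overlapped. The log2 difference was -0.11 (95% interval -0.19 to -0.02; edgeR adjusted p = 0.0525). It passed in limma on log2(CPM + 0.5) (-0.11, adjusted p = 0.039), without robust shrinkage of the dispersion (-0.11, edgeR adjusted p = 0.0426), and when scramble replicate 3 or 4 or Kdm5c siRNA replicate 1 was left out (-0.12, edgeR adjusted p = 0.0374 to 0.0458). On days -2 and -1 the differences were 0.03 (95% interval -0.06 to 0.12) and 0.00 (95% interval -0.08 to 0.08). Over time in scramble cells Agpat2 rose by 0.23 ± 0.04 (SE) from day -2 to day 0 (edgeR adjusted p = 5.61e-06).

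Agpat1 (chr17:34604262-34613449, plus strand) was the most highly expressed of the 9 genes per kilobase of exon in all groups. In scramble cells it fell from 148 to 156.7 CPM on day -2 to 113.7 to 121.6 CPM on day 0, by -0.40 ± 0.02 (log2, SE; edgeR adjusted p = 4.18e-19). Of the 8 members tested over time it was the one that fell over that interval. Its siRNA differences were -0.01 (95% interval -0.06 to 0.04), 0.02 (95% interval -0.02 to 0.07) and 0.05 (95% interval 0.00 to 0.10; edgeR adjusted p = 0.106) on days -2, -1 and 0. Agpat1 shares 101 exon bases with Egfl8 and Agpat2 shares 64 with Egfl7, both on the opposite strand. Those genes averaged 0.469 and 1.55 CPM, against means above 118 and 16 CPM for Agpat1 and Agpat2. The libraries keep strand, but whether the counting did is not given in the sources used here.

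Per kilobase, Agpat1 made up 77.7% ± 0.44 (SD, n = 5) of the summed Agpat1, Agpat2 and Agpat3 level in scramble cells on day -2 and 68.5% ± 1.19 on day 0. Under Kdm5c siRNA it made up 77.6% ± 0.39 and 71.5% ± 0.64. The day -2 libraries overlapped and the day 0 libraries did not, at 66.9% to 69.6% in scramble and 70.8% to 72.5% under the siRNA. The Agpat3 share on day 0 was 15.3% ± 0.57 in scramble and 13.3% ± 0.43 under the siRNA, again without overlap. With longest transcripts the Agpat1 shares were 77.7% and 68.5% in scramble on days -2 and 0.

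The enzymes of the last step, which add the final acyl chain to diacylglycerol, did not pass the siRNA test on any day. DGAT1 and DGAT2 are unrelated proteins with the same reaction. On day 0 Dgat1 (chr15:76502015-76511953, minus strand) held 21.23, 20.49, 18.46, 23.29 and 19.18 CPM in scramble and 17.92, 21.67, 19.69, 19.96 and 20.7 CPM under the siRNA. Dgat2 (chr7:99153658-99182719, minus strand) held 6.109, 5.028, 5.449, 6.435 and 5.844 CPM against 5.572, 6.115, 6.552, 5.472 and 7.105 CPM. Both pairs of groups overlapped.

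The log2 differences of Dgat1 were -0.05 (95% interval -0.20 to 0.11) on day -2, -0.14 (95% interval -0.28 to 0.01; edgeR adjusted p = 0.129) on day -1 and -0.04 (95% interval -0.18 to 0.10) on day 0. Without scramble day -1 replicate 4, its lowest scramble library of that day, the day -1 value was -0.18 (edgeR adjusted p = 0.0481). Over all 23 alternatives it ran from -0.18 to -0.04. Scramble day -1 replicates 4 and 5 held 15.94 to 17.66 CPM, inside the siRNA range of 13.64 to 17.84 CPM, and replicates 1 to 3 held 18.09 to 19.3 CPM. For Dgat2 the log2 differences were 0.04 (95% interval -0.13 to 0.21), 0.15 (95% interval -0.03 to 0.32; edgeR adjusted p = 0.19) and 0.09 (95% interval -0.08 to 0.26). In scramble cells Dgat1 rose by 0.56 ± 0.07 (SE) from day -2 to day 0 (edgeR adjusted p = 5.21e-09), and Dgat2 differed by 0.02 (95% interval -0.16 to 0.19; edgeR adjusted p = 0.856). The Dgat1 share of the pair, per kilobase, was 70.9% ± 2.32 (SD, n = 5) on day -2 and 78.2% ± 1.41 on day 0 in scramble cells, and 69.8% ± 3.38 and 76.6% ± 1.76 under the siRNA.

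Counted over the 8 genes other than Lpin3, the siRNA comparisons gave calls in the lower direction. On day -2, 1 of the 8 was lower (Lpin2), where 11.8% of all 12016 genes were, and 0 were higher, where 11.2% were. On day -1, 4 were lower (Lpin1, Lpin2, Gpam and Agpat3; 16.8% of all genes) and 0 higher (18.8% of all genes). On day 0, 3 were lower (Lpin2, Gpam and Agpat3; 15.7% of all genes) and 0 higher (19.2% of all genes). At an unadjusted p under 0.05 edgeR gave 0, 0 and 1 higher (Agpat1 on day 0). DESeq2 and limma on log2(CPM + 0.5) each gave 0 higher on all 3 days, adjusted or not. The median log2 change of the 8 was -0.04, -0.12 and -0.09, against 0.00 for all genes on each day. These comparisons chose Lpin3 and were known when the list was drawn up, so nothing is read from the counts.

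For the difference of effects between day 0 and day -2, 2 of the 8 were more negative on day 0 (Gpam and Agpat3), as were 5.73% of all genes, and 0 were more positive, as were 9.85% of all genes. At an unadjusted p under 0.05, 1 was more positive (Lpin2, 0.09, 95% interval 0.01 to 0.16; edgeR adjusted p = 0.129), by edgeR, DESeq2 and limma alike. The siRNA effect on Kdm5c itself was 0.63 ± 0.06 (log2, SE) weaker on day 0 than on day -2.

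**Figure D4:**
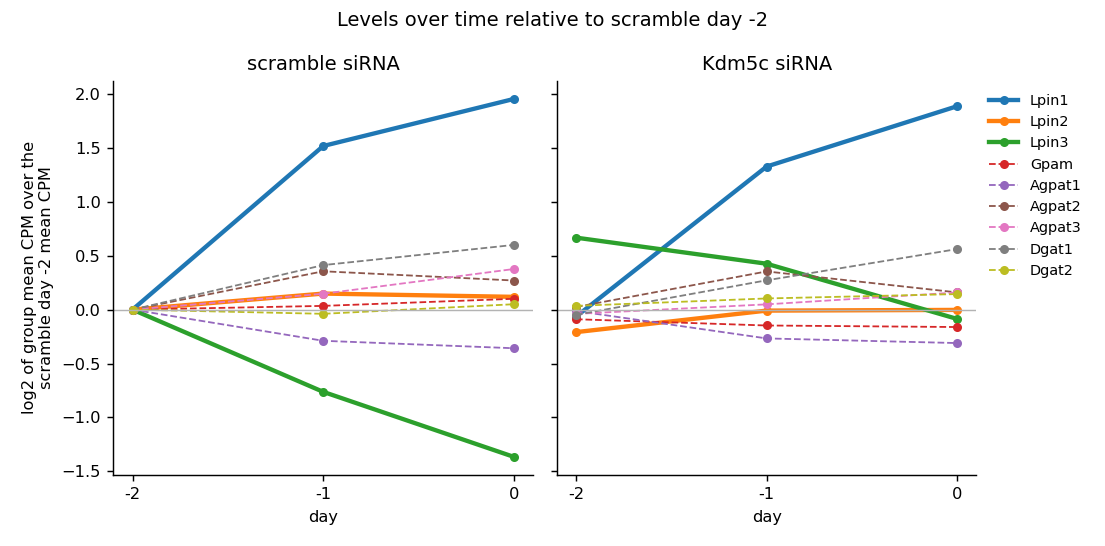
Log2 of each group's mean CPM over the scramble day -2 mean (y axis) by day (x axis), for scramble siRNA (left) and Kdm5c siRNA (right); solid lines are lipins and broken lines acyltransferases. Lpin1 ends at 388% of the scramble day -2 level in scramble cells and 370% under the siRNA, and Lpin3 at 38.8% and 94.2%.

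Over time in scramble cells, where most genes of the table changed, the 8 genes other than Lpin3 mostly rose or missed the threshold. From day -2 to day -1, 5 rose (39.4% of all genes did) and 1 fell (Agpat1; 39.3%). From day -1 to day 0, 4 rose (36.6%) and 0 fell (37.7%) by edgeR, which also gave 0 that fell at an unadjusted p under 0.05. DESeq2 gave 0, and limma on log2(CPM + 0.5) gave 1 that fell (Agpat1, -0.07). The median of all genes in that limma fit was -0.039, against -0.006 in the main fit. By edgeR, Agpat1 also passed with reads recovered from the CPM table (-0.06, edgeR adjusted p = 0.0474), where that median was -0.015. Without scramble day -1 replicates 1 to 3 it passed too (-0.07, edgeR adjusted p = 0.0346), with a median of -0.005. Over the whole interval 5 rose (Lpin1, Lpin2, Agpat2, Agpat3 and Dgat1; 44.6% of all genes) and 1 fell (Agpat1; 43.6%), while Gpam and Dgat2 missed the threshold. Their median log2 change over the whole interval was 0.16, against 0.00 for all genes.

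Ordered per kilobase in scramble cells on day -2, the 9 genes ran from Agpat1 (50.4 CPM per kilobase) through Agpat2 (7.70), Agpat3 (6.78), Lpin2 (5.42), Gpam (5.06), Dgat1 (4.43), Lpin3 (2.58) and Dgat2 (1.81) to Lpin1 (1.28). Libraries of neighbours in this order overlapped for Lpin2 and Gpam and for Gpam and Dgat1. By day 0 Lpin1 stood at 4.95 CPM per kilobase, ahead of Dgat2 (1.87) and Lpin3 (1.00), which was then last. Under Kdm5c siRNA on day 0 Lpin3 (2.43) overlapped Dgat2 (2.00), and Lpin1 (4.72) overlapped Gpam (4.52). All these places below Agpat1 rest on the union of exons, and some change with the longest transcripts. For Lpin2, for example, the union has 12233 bases and the longest transcript 5640, where Agpat2 has 2130 and 1489.

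The genes most like each lipin over the 30 libraries differed from lipin to lipin. The measure was Pearson's r of log2 CPM, given as a description, since the 30 libraries form 6 groups and are not independent points. Lpin1 was most like Col6a1 (r = 0.997) and Col6a2 (0.996), which encode collagen VI chains, then Ift122, Ccdc136 and Gas7 (0.995 each). Lpin2 was most like Flot2 (0.943), a membrane scaffold protein, Fam160b2 (0.927), Bcl9l, Atp8b2 and the sterol enzyme Msmo1 (0.926 each). Lpin3 was most like the potassium channel gene Kcnk2 (0.964), Nras (0.963), Zbtb38 (0.961), Dbn1 (0.959) and Mtor (0.957). Kcnk2, for example, held 12.7 and 18 CPM on day -2, 8.63 and 16.4 CPM on day -1 and 5.41 and 10.3 CPM on day 0 in scramble and siRNA libraries. Between the lipins r was -0.64 for Lpin1 and Lpin3, -0.81 for Lpin2 and Lpin3 and 0.67 for Lpin1 and Lpin2.

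Genes beside Lpin3 did not share its size of difference. Zhx3, whose start lies 7.67 kb from that of Lpin3, differed by -0.08 ± 0.05 (log2, SE), -0.10 ± 0.05 and -0.14 ± 0.05 on days -2, -1 and 0, and the last of these passed (edgeR adjusted p = 0.0246). Plcg1, 149 kb away, differed by 0.04 ± 0.02, 0.09 ± 0.02 and 0.10 ± 0.02, and passed on days -1 and 0. E2f6, whose start lies at the edge of the 200 kb searched around that of Lpin1, was higher under the siRNA on each day, by 0.25 ± 0.04, 0.30 ± 0.04 and 0.16 ± 0.05 (edgeR adjusted p = 1.07e-05, 2.29e-07 and 0.00545). Near Lpin2, Emilin2 rose on days -1 and 0 (0.15 ± 0.05 and 0.42 ± 0.05), Myom1 rose on both (0.51 ± 0.17 and 0.49 ± 0.16, from means near 2 CPM), Myl12a rose on both (0.08 ± 0.03 and 0.07 ± 0.03), and Myl12b missed the threshold on each day.

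The rest of the pathway was described from 12 lists drawn up by function, with earlier results known, naming in each the gene called with the largest fold change in either direction. Their counts stand against the shares of all 12016 genes called: 11.2% rose and 11.8% fell on day -2, 18.8% and 16.8% on day -1, and 19.2% and 15.7% on day 0. Of 6 fitted acyl-CoA synthetases, which activate the fatty acids, 1 rose (Acsl4, 0.13 ± 0.03) and 2 fell on day -1, Acsl1 by 0.27 ± 0.04. On day 0, 2 fell, Acsl5 by 0.16 ± 0.03. Of 3 fitted genes that supply glycerol 3-phosphate, Gpd2 fell on day -2 (-0.13 ± 0.03) and on day -1 (-0.14 ± 0.03). List medians lay between -0.07 and -0.04 for the synthetases and between -0.11 and 0.01 for the supply genes.

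Of 10 other fitted acyltransferases of glycerophosphate and lysophospholipids, 1 rose and 2 fell on day -2 (11.2% and 11.8% of all genes), 4 rose and 1 fell on day -1 (18.8% and 16.8%), and 4 rose and 2 fell on day 0 (19.2% and 15.7%). Lclat1 rose on all 3 days (0.14 ± 0.03, 0.14 ± 0.03 and 0.21 ± 0.03) and Gpat3 on day -1 (0.32 ± 0.13). Beside these largest changes, Gpat4 (0.06 ± 0.02 and 0.10 ± 0.02) and Agpat4 (0.17 ± 0.04 and 0.13 ± 0.04) rose on days -1 and 0. In scramble cells on day 0 Gpat4 averaged 131 CPM and Agpat4 41.1 CPM. Lpcat1 fell on day -2 (-0.08 ± 0.03) and rose on day 0 (0.17 ± 0.03), Lpcat3 fell on days -1 and 0 (-0.14 ± 0.03 and -0.13 ± 0.03), and Lpcat2 fell on day 0 (-0.49 ± 0.10). The monoacylglycerol acyltransferases Mogat1 and Mogat2 were not in the count table. Medians of this list were 0.00, 0.04 and 0.08.

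Ctdnep1, the phosphatase that activates lipins by removing their phosphates, fell on day -2 by 0.11 ± 0.02 (edgeR adjusted p = 0.000543), and its partner Cnep1r1 was not called on any day. Of 6 membrane-bound lipid phosphate phosphatases and related proteins, some of which can also act on phosphatidate, Plpp3 fell on day -2 (-0.13 ± 0.05). Of 15 genes of the routes that make phospholipids from phosphatidate or diacylglycerol, 1 rose and 3 fell on day -2 (11.2% and 11.8% of all genes). On day -1, 3 rose and 5 fell (18.8% and 16.8%), and on day 0, 3 rose and 7 fell (19.2% and 15.7%). Pcyt2, the step to phosphatidylethanolamine, fell on all 3 days (-0.31 ± 0.05, -0.33 ± 0.04 and -0.13 ± 0.04), and Chpt1, the last step to phosphatidylcholine, on days -1 and 0 (-0.18 ± 0.04 and -0.27 ± 0.04). Pcyt1b rose on all 3 days (0.25 ± 0.04, 0.25 ± 0.03 and 0.11 ± 0.04) and Cdipt on days -1 and 0 (0.10 ± 0.02 and 0.13 ± 0.03). Medians of this list were 0.00, -0.03 and -0.04.

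Of 7 fitted diacylglycerol kinases, which turn diacylglycerol back into phosphatidate, 2 rose on each day (11.2%, 18.8% and 19.2% of all genes) and 1 fell on days -2 and -1 (11.8% and 16.8%). Dgkh rose on day -2 (0.15 ± 0.05) and Dgka on days -1 and 0 (0.17 ± 0.06 and 0.31 ± 0.05), while Dgkz fell by 0.16 ± 0.04 and 0.16 ± 0.05. Of 3 genes of the phospholipase D family, Pld3 fell on days -1 and 0 (-0.25 ± 0.05 and -0.15 ± 0.05). Of 6 genes of droplet assembly, Plin2, a droplet coat protein, rose on days -2 and -1 (0.12 ± 0.04 and 0.16 ± 0.04) and Lpcat1, also counted above, on day 0 (0.17 ± 0.03). Fitm2 fell on day -2 (-0.15 ± 0.05) and Pcyt1a on days -1 and 0 (-0.23 ± 0.03 and -0.10 ± 0.03).

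Of 3 fitted genes of triglyceride hydrolysis, Lipe, the hormone-sensitive lipase, fell on days -1 and 0 (-0.38 ± 0.07 and -0.37 ± 0.07). On day -2 the lipase gene Pnpla2 rose (0.18 ± 0.05) and Abhd5, its activator, fell (-0.11 ± 0.04), as it did on day 0 (-0.14 ± 0.04). Of 11 fitted transcription factors named for lipogenic genes, Ppargc1a, which encodes a coactivator, rose on day -2 (0.25 ± 0.09) and Pparg on all 3 days (0.11 ± 0.03, 0.11 ± 0.03 and 0.09 ± 0.04). Srebf2 fell on all 3 days (-0.14 ± 0.02, -0.18 ± 0.02 and -0.11 ± 0.02), Nr1h3 on day -1 (-0.27 ± 0.10) and Usf2 on day 0 (-0.19 ± 0.04).

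Several of these calls depended on single libraries. The calls of Lpcat1, Abhd5, Dgkh, Fitm2, Plpp3, Ppargc1a, Pnpla2, Plin2 and Pparg on day -2, of Gpat3, Nr1h3, Dgka and Kdr on day -1, and of Pparg, Pcyt1b and Csf1r on day 0 were each lost when at least 1 library was left out. Without scramble replicates 1 to 3 of day -1, the day -1 calls of Gpat3 (0.09), Lipe (-0.21), Nr1h3 (-0.29), Pld3 (-0.13), Plin2 (0.08), Pparg (0.09), Cdipt (0.08), Kdr (0.47) and Dgka (0.16) were lost as well.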

How the data were processed

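RNA-seq libraries of 3T3-L1 cells (5 per siRNA and day) were made with a strand-specific kit, per the labels' protocols. Reads were aligned with STAR 2.7.2a to GRCm38 and edgeR 3.26.8 was used, per the submitters' processing notes; which counter and gene models were used is not given in the sources used here. Deposited by the authors were raw read counts for 12016 genes and CPM values for 55573. The count table held the genes with a CPM of at least 1 in at least 20 libraries, and 99.73 to 99.8% of reads. Of nonzero deposited CPM values, 100.0% were whole multiples of a read within 0.05 reads, so totals and reads were recovered from them. In the recovered reads after edgeR's low-count filter (15135 genes), 4335 genes were called on day 0.

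Counts were fitted in edgeR 4.0.16 (TMM scaling, robust quasi-likelihood) on all 30 libraries with a mean per group, and p-values were adjusted by Benjamini-Hochberg over all genes; a call is an adjusted p under 0.05. The fit's common biological coefficient of variation came to 0.0367. CPM values, and percentages of their means, carry no TMM scaling, so over time they can differ from the fitted changes. The script was tested on simulated data. DESeq2 1.42.0 and limma 3.58.1 were alternatives. Of the count table's identifiers, 12010 matched GENCODE M21, which gave symbols, coordinates and lengths. The members and lists were chosen with earlier results of these data known; the genes named are the 9 members, Kdm5c, per list the called gene with the largest change in each direction (mean of at least 1 CPM), the 5 genes most like each lipin, and fitted protein-coding neighbours within 200 kb. The markers named with values, and Gpat4 and Agpat4, were chosen after their values were seen. Protein sequences were not used here. Replicate numbers were checked for pairing and did not pair the libraries: deviations of same-numbered libraries correlated at -0.22 to 0.30, and 4 of 15 pairs exceeded 0.1.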

Additional observations from a re-analysis of the deposited data

Results flagged for a closer look

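The siRNA effects of Gpam and Agpat3 differed between days by the test of the difference itself: day 0 minus day -2 was -0.17 (log2) for Gpam (edgeR adjusted p = 0.013) and -0.18 for Agpat3 (edgeR adjusted p = 0.00188). Both calls were kept in all 32 alternatives, where the differences ran from -0.20 to -0.15 for Gpam and from -0.20 to -0.16 for Agpat3. Among 54 sets of 5 libraries (9 genes in 6 groups), 2 held a library set apart from the other 4 by Dixon's criterion: the lowest Agpat2 value under Kdm5c siRNA on day -1 (19.61 CPM, replicate 3) and the lowest Agpat3 value in scramble on day -2 (50.81 CPM, replicate 4). Chance sets apart about 1 in 20 such sets.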

How the results depend on the processing

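Counts of genes called in the 7 comparisons stayed within 1.5 times the reported count in the alternatives run, except on day -1 without scramble replicates 1 to 3 (chosen after seeing the data), which gave 2555 genes in place of 4268 and 2 of the 8 members in place of 4. With that setting the Lpin1 difference was 0.01, that of Agpat1 was -0.01, and the Lpin1 to Lpin2 ratio of day -1 differed by 0.14; fewer libraries also make fewer calls. Other changes of sign were in values that missed the threshold in both settings. For Gpam from day -2 to day -1 (-0.04 as reported), upper-quartile scaling gave 0.02 and limma on log2(CPM + 0.1), (CPM + 0.5) and (CPM + 2) gave 0.04, 0.03 and 0.03. The median of all genes in these settings was 0.062, 0.073, 0.07 and 0.063, against 0.0 in the main fit. For Dgat2 from day -2 to day 0 (0.02), dropping the low-count filter gave -0.03 and recovered reads gave -0.02. Leaving out 1 library at a time gave 1 to 2 members called on day -2 (2 without scramble replicate 2) and ratio differences of 0.12 to 0.20 on day -2 and -0.08 to 0.01 on day -1. It gave day -2 siRNA differences of -0.10 to 0.01 for Lpin1, -0.07 to 0.01 for Dgat1 and -0.01 to 0.09 for Dgat2. For Dgat1 it gave -0.08 to 0.01 on day 0 and -0.04 to 0.06 for the difference of effects. For Dgat2 from day -2 to day 0 it gave -0.03 to 0.06. The cause of these sign changes was not tested. Under limma on log2(CPM + 2) the Lpin3 values were 0.96 on day -1 and 0.94 on day 0, since that pseudocount is large beside its CPM. The replicate block gave 2679, 4195 and 4148 genes called on days -2, -1 and 0 (2765, 4268 and 4201 without it) and changed no member's call; of the list genes it cost Lpcat1 its call on day -2. The least-read values were those of Lpin3, from 90 reads, and those of Dgat2, from 132 reads.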
